A study of Mus musculus with 16 samples.

Results

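Serine, glycine and one-carbon units are made by a short chain of enzymes, and asparagine by a separate enzyme. Of their genes 10 were followed in subcutaneous and visceral adipose tissue of lean and obese mice. These were Phgdh, Psat1, Psph, Shmt1, Shmt2, Mthfd1, Mthfd2, Mthfd1l, Aldh1l1 and Asns. The genes were chosen by name, and their entries were found by RefSeq transcript identifier. They hold 28 of the 130343 entries of the expression table, 17 of these 28 entries have at least 1 count, and 10 passed the filter on low counts. With the counts of each gene's entries summed, 8 of the 10 genes could be tested, and Psph and Mthfd1l could not.

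Phgdh, Psat1 and Psph encode the enzymes that turn a glycolytic intermediate into serine. Shmt1 in the cytosol and Shmt2 in mitochondria split serine into glycine and a one-carbon unit bound to folate. Mthfd1, Mthfd2, Mthfd1l and Aldh1l1 convert that unit between its forms, so that it can enter purines, thymidylate and methionine or leave as carbon dioxide. Asns makes asparagine from aspartate and glutamine. Several of these genes, Phgdh and Asns among them, are known targets of the transcription factor ATF4, which is made when amino acids run short or the endoplasmic reticulum is stressed.

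Male wild-type C57BL/6J mice were given either a laboratory normal diet (lean mice) or a high-fat diet (obese mice; 42% of energy from fat, 0.2% cholesterol) from 10 weeks of age for 12 to 14 months. Each of the 4 lean and 4 obese mice gave 1 library of inguinal subcutaneous adipose tissue (SAT, the depots of both sides pooled) and 1 of mesenteric visceral adipose tissue (VAT), with visible vessels removed, so that the 16 libraries form 4 groups of 4. No genetic change or drug was used. The polyadenylated RNA of whole tissue was sequenced.

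Levels are given as CPM, the summed counts of a gene per 1000000 counts of the library, scaled with TMM factors (trimmed mean of M values, a correction for libraries in which a few genes take up many counts). They are not divided by transcript length, so levels are compared between libraries and not between genes. Total counts were lowest in VAT of lean replicate 1 (1256082 counts) and VAT of obese replicate 1 (2247737 counts), and the other 14 libraries had 4604460 to 16614407 counts. Scd1 alone took 3.28% to 14.0% of the counts in SAT from lean mice, 23.7% to 25.7% in SAT from obese mice, 5.04% to 9.20% in VAT from lean mice and 12.5% to 18.5% in VAT from obese mice. Phgdh has a single entry and 82770 counts in all, at least 1127 in every library. The 9 other genes have 2 to 7 entries each and between 5 counts (Mthfd1l) and 1116 counts (Mthfd1 and Aldh1l1) over all 16 libraries. How the counting treated reads that fit several transcripts was not stated, so a low count of these 9 genes is not read as low expression. For the same reason a change of these 9 genes is one of the counted reads and need not cover all transcripts.

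The promoters of Phgdh and Asns, the members whose levels differed between diets, are printed here from RefSeq (GRCm38.p6), each from 250 bases before to 50 bases after the annotated start, 5′ to 3′ on the gene's strand. Capitals mark matches, on either strand, to TGATGNAA, the element that ATF4 binds with C/EBP partners, and to GTTACA, the adjoining nutrient-sensing element described at the Asns gene. The E-box CACGTG was searched too and had no match in either window.
Phgdh promoter: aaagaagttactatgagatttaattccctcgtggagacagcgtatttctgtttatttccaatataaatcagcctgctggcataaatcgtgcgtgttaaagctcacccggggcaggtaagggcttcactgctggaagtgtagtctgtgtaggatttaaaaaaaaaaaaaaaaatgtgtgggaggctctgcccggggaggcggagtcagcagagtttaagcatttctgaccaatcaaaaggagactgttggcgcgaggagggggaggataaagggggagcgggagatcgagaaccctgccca
Asns promoter: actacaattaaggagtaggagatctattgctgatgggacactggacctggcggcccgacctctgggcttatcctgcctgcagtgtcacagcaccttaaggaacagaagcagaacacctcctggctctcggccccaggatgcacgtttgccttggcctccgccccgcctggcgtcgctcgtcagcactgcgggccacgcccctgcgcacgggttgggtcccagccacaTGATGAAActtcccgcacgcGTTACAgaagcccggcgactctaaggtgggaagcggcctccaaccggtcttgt

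The Phgdh window lies at chr3:98339920-98340219 on the minus strand and occurs once in GRCm39, the build of the counts, at chr3:98247236-98247535. The Asns window lies at chr6:7693160-7693459 on the minus strand in both builds. Asns held TGATGAAA with its first base at position -23 from the start and GTTACA at position -3, and Phgdh held neither. Among 32851 promoter windows of the same length, 3.97% held TGATGNAA, 8.25% GTTACA and 7.15% CACGTG, and of the promoters of the 10 genes only that of Asns matched any of the 3. A match describes letters in this window and not the binding of a factor, which was not measured here. Only windows at these annotated RefSeq starts were searched. The windows of Phgdh and Asns lie inside the wider gene spans given next, so a missing match does not cover other starts of the gene. By the GENCODE annotation of GRCm39 no other gene overlaps Phgdh (chr3:98220484-98255047), whereas the noncoding gene 1700012J15Rik overlaps Asns (chr6:7671667-7728461) on the other strand. Of the tested genes, Shmt1 overlaps the protein-coding genes Top3a on the same strand and Smcr8 on the other strand. Shmt2 overlaps the protein-coding gene Ndufa4l2 on the other strand. The library kit keeps the strand, but the strand setting of the counting was not given in the sources used here.

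In SAT from obese mice 1 of the 8 tested genes, Phgdh, was called, and it was downregulated. In VAT from obese mice 2 of 8 were called, Phgdh and Asns, both downregulated. Called means an adjusted p under 0.05 (edgeR's quasi-likelihood test, Benjamini-Hochberg adjustment over all 12186 genes tested). By the same rule 11.6% of all genes were called in SAT (6.35% higher and 5.25% lower in obese mice) and 12.2% in VAT (6.88% higher and 5.28% lower), so the share of called members was near the background in SAT, and in VAT it rests on 2 genes. The median log2 fold change of the 8 genes was -0.33 in SAT and -0.29 in VAT, beside 0.00 and -0.02 over all genes. When each transcript entry was tested on its own, 1 of 10 entries was called in SAT and 2 of 10 in VAT, the entries of Phgdh and Asns, with 11.0% and 10.9% of 13288 entries called overall. No member changed by more than 1.5 on the log2 scale together with an adjusted p below 0.05, the limit used by the study, which 2.60% of genes (2.75% of entries) passed in SAT and 3.22% (3.17%) in VAT.

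Phgdh encodes phosphoglycerate dehydrogenase, which draws carbon from glycolysis into serine. In SAT from lean mice its level was 665, 598, 576 and 601 CPM in replicates 1 to 4, and in SAT from obese mice it was 382, 432, 348 and 311 CPM. All 4 obese libraries lay below all 4 lean libraries. The means were 610 ± 38.3 CPM (SD, n = 4) in lean and 368 ± 51.3 CPM in obese mice, a log2 fold change of -0.73 (SE 0.13, 95% interval -0.997 to -0.46, edgeR adjusted p = 0.00070).

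In VAT from lean mice Phgdh was at 783, 676, 817 and 754 CPM, and in VAT from obese mice at 430, 458, 546 and 337 CPM. Again the groups did not overlap. Phgdh was the only one of the 8 genes without overlap between diets in SAT, where 17.3% of all genes had none, and Phgdh and Asns had none in VAT, where the share was 14.3%. The mean fell from 758 ± 60.2 CPM to 443 ± 86.4 CPM (log2 fold change -0.77, SE 0.13, 95% interval -1.04 to -0.51, edgeR adjusted p = 0.00039). The diet response did not differ detectably between tissues, with a difference of -0.06 in log2 fold change (VAT minus SAT, 95% interval -0.37 to 0.26, adjusted p = 0.90 with mouse as a block).

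**Figure D1:**
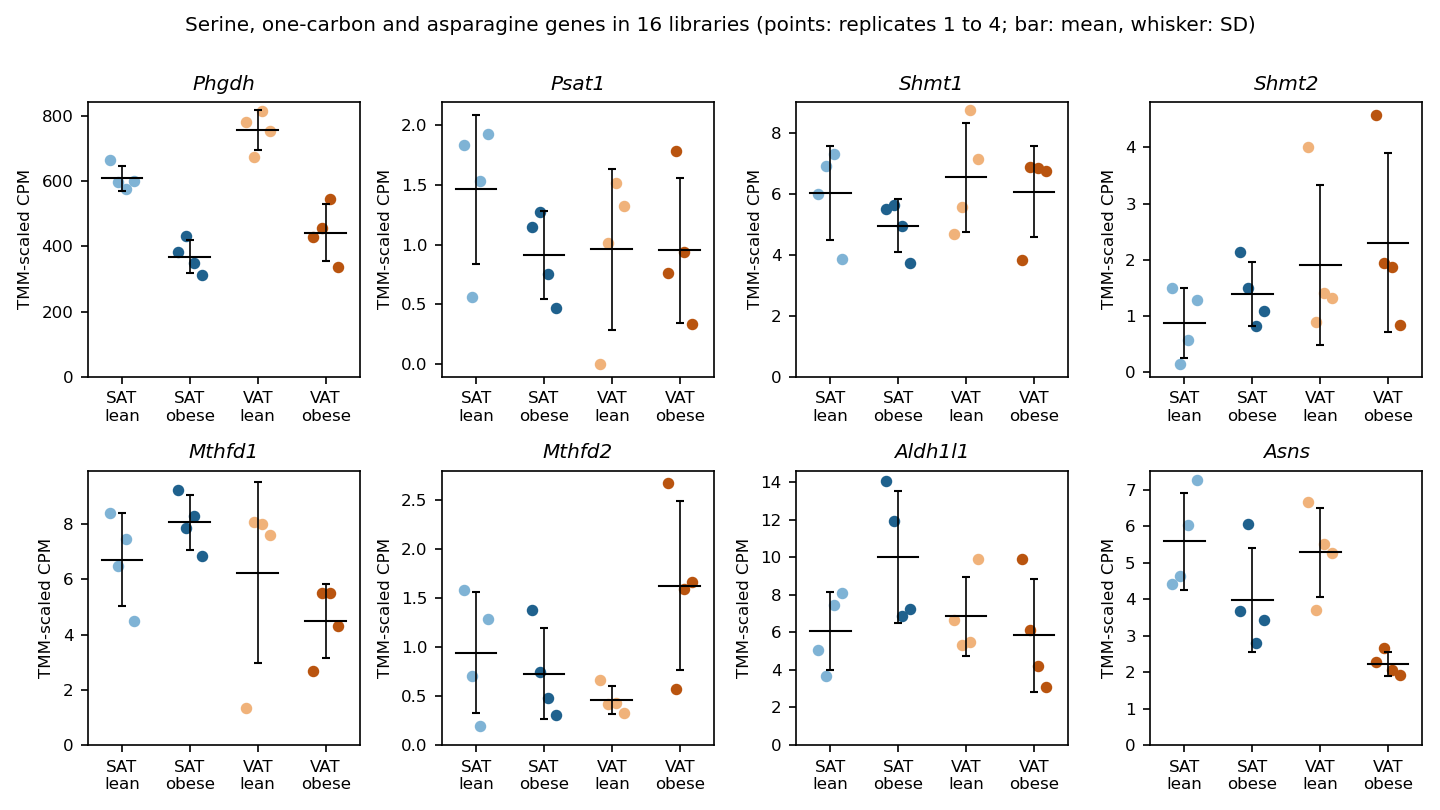
TMM-scaled CPM (y axis, a separate scale for each gene) of the 8 tested genes in the 4 groups (x axis), with 1 point per library in the order of replicates 1 to 4, the mean as a bar and the SD as a whisker. Phgdh in obese mice lies at 311 to 432 CPM in SAT and 337 to 546 CPM in VAT, below every lean library of the tissue, and Asns in VAT from obese mice lies at 1.91 to 2.67 CPM, below the 3.70 to 6.68 CPM of lean mice.

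Within each mouse Phgdh was higher in VAT than in SAT, in 4 of 4 lean and 4 of 4 obese mice. The ratio of VAT to SAT was 1.18, 1.13, 1.42 and 1.26 in lean replicates 1 to 4, and 1.13, 1.06, 1.57 and 1.08 in obese replicates 1 to 4. In lean mice the log2 difference was 0.31 (SE 0.11, edgeR adjusted p = 0.050, just under the limit), the only call among the 8 genes where 15.9% of all genes were called. It was the only one of the 8 without overlap between tissues in lean mice, where 18.1% of all genes had none. This call was not stable: in the test of single entries it was lost (adjusted p = 0.063, with 0 of 10 entries called, 2 of 10 at an unadjusted p below 0.05, 0 by DESeq2, and 14.8% of all entries called), and it was lost in 12 of 14 alternatives. In obese mice the difference was 0.26 (SE 0.11, adjusted p = 0.073). The order of the 4 groups by mean Phgdh level was thus VAT lean, SAT lean, VAT obese and SAT obese, and the last 2 overlapped.

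Markers of other cells moved with diet too. These are bulk tissues, in which fewer cells of a type and less RNA per cell cannot be told apart. In SAT none of 8 adipocyte genes was called by edgeR (0 at an unadjusted p below 0.05), their median log2 fold change was -0.09, and their summed level was 40942 to 58147 CPM in lean and 36880 to 52592 CPM in obese mice. In VAT 3 of 8 were downregulated, Lipe by 0.70, Adipoq by 0.62 and Plin1 by 0.61 on the log2 scale, with a median of -0.61 and a summed level of 21828 to 34638 CPM in lean and 15198 to 25438 CPM in obese mice. The fall of Phgdh by 0.73 in SAT thus stood beside an adipocyte median of -0.09, and its fall by 0.77 in VAT beside one of -0.61. The part of the cell mixture in these results was not tested.

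Macrophage genes rose in both tissues, 4 of 6 tested in SAT (Cd68 by 1.43) and 5 of 6 in VAT (Cd68 by 2.32), and their summed level went from 755 to 1027 CPM in lean SAT to 1307 to 1732 CPM in obese SAT and from 1262 to 1547 CPM in lean VAT to 2502 to 3228 CPM in obese VAT. Of 6 tested genes of lipid-associated macrophages, 2 rose and Lpl, which adipocytes express as well, fell in SAT, and 5 rose (Gpnmb by 4.01, Trem2 by 3.59) and Lpl fell in VAT. Genes of B cells (3 of 5), plasma cells (2 of 4) and T cells (3 of 4) rose in VAT, and genes of dividing cells rose in both tissues (2 and 3 of 3). Of 3 tested pancreas genes Cela1 rose in both tissues, and Pnlip (mean 1.68 CPM in lean and 0.32 CPM in obese VAT, 0 in SAT) and Cpa1 (1.51 CPM in lean and 0.65 CPM in obese VAT) were not called with diet. Zg16 and Slc5a1 of the intestinal list fell in VAT. Of the genes of endothelium (4 tested), fibroblasts and progenitors (5), mesothelium (6), keratinocytes (1) and skeletal muscle (1), 0 were called by edgeR with diet in either tissue, and at an unadjusted p below 0.05 there were 1 endothelial gene in SAT and 2 mesothelial genes in VAT. Pecam1, an endothelial marker, was at 0 in all 16 libraries, so a count of 0 in this table does not show that a cell type is missing. The part of these cells in the diet response of Phgdh and Asns was not tested.

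Over the 16 libraries the genes with the pattern most like that of Phgdh, by the root mean square difference of centred log2 CPM among 10706 genes, were Ivd (0.19), Cpne2 (0.21) and Isoc2a (0.22), where Phgdh itself varied by 0.44. Ivd, which acts in leucine breakdown, averaged 71.2 CPM in lean and 41.5 CPM in obese SAT, and 71.3 CPM in lean and 39.9 CPM in obese VAT. The resemblance is a description over libraries that share the same mice and diets.

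Psat1 and Psph encode the next enzymes of serine synthesis, the aminotransferase that makes phosphoserine and the phosphatase that releases serine. Psat1 had 176 counts in all and 0 in VAT of lean replicate 1, a count that allows up to 2.00 CPM at that depth by counting error alone. Its mean was 1.46 ± 0.62 CPM in lean and 0.91 ± 0.37 CPM in obese SAT, and 0.96 ± 0.67 CPM in lean and 0.95 ± 0.61 CPM in obese VAT, with overlap throughout. The log2 fold changes were -0.70 in SAT (95% interval -1.73 to 0.33) and -0.22 in VAT (-1.32 to 0.88), intervals that hold both 0 and a fall as large as that of Phgdh. Between tissues Psat1 differed by -0.25 in lean mice (VAT minus SAT, 95% interval -1.33 to 0.82) and by 0.06 in obese mice (-1.01 to 1.14). Psph had 33 counts, at most 5 in a library, and was at 0 in 3 libraries.

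Asns encodes asparagine synthetase. Its level in VAT from lean mice was 6.68, 3.70, 5.51 and 5.28 CPM in replicates 1 to 4, from 10, 62, 51 and 48 counts. In VAT from obese mice it was 2.29, 2.67, 2.06 and 1.91 CPM, from 6, 33, 22 and 23 counts, and every obese library lay below every lean library. The mean fell from 5.29 ± 1.22 CPM to 2.23 ± 0.33 CPM (log2 fold change -1.16, SE 0.29, 95% interval -1.76 to -0.57, edgeR adjusted p = 0.0095). The change was the largest fall among the 8 genes in VAT. Its direction held in all 16 alternatives and its call in 15 (adjusted p between 0.0043 and 0.054). The call was lost when obese replicate 4 was left out (log2 fold change -1.06, adjusted p = 0.054).

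In SAT Asns was at 4.42, 4.65, 6.04 and 7.27 CPM in lean and at 3.67, 6.06, 2.81 and 3.42 CPM in obese mice. Obese replicate 2 lay within the lean range and the other 3 below it. The log2 fold change of -0.48 (SE 0.26, 95% interval -1.02 to 0.05, edgeR adjusted p = 0.24) was not called. The difference between the diet responses of the tissues, -0.67 in log2 fold change, did not pass the test either (95% interval -1.44 to 0.11, adjusted p = 0.42), so the response of Asns is not shown to differ between VAT and SAT.

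**Figure D2:**
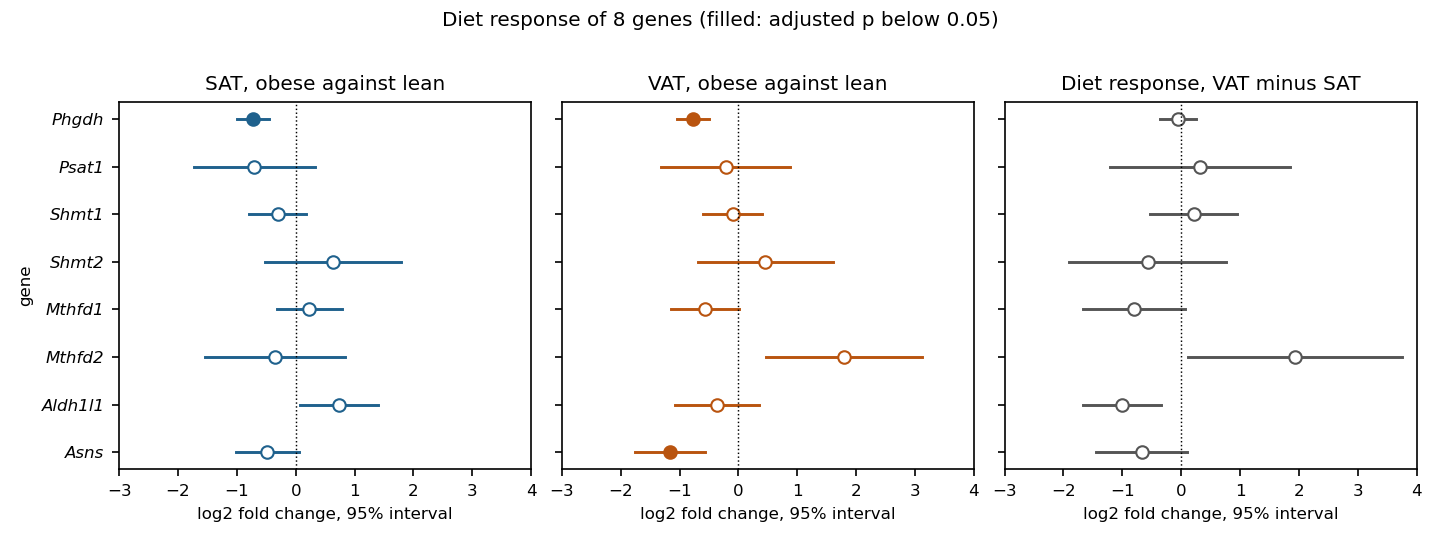
Log2 fold change (x axis, with 95% interval) of the 8 tested genes (y axis) in SAT, in VAT and for the difference of both responses, filled where the adjusted p was below 0.05. Phgdh is filled in SAT (-0.73) and VAT (-0.77), Asns in VAT alone (-1.16), and no gene in the third panel, where the intervals of Mthfd2 and Aldh1l1 exclude 0 before adjustment.

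Asns was lower in VAT than in SAT in each of the 4 obese mice, with ratios of 0.62, 0.44, 0.73 and 0.56. Among the 4 lean mice it was lower in 3, with ratios of 1.51, 0.80, 0.91 and 0.73. The obese groups did not overlap, and the log2 difference was -0.81 (SE 0.27, edgeR adjusted p = 0.025). In lean mice it was -0.15 (95% interval -0.68 to 0.38, adjusted p = 0.77). The call of Asns in obese mice was lost without the filter on low counts (-0.84, adjusted p = 0.051), without obese replicate 2 (-0.62, adjusted p = 0.18) and without obese replicate 4 (-0.78, adjusted p = 0.094).

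Genes with a pattern most like that of Asns were Gpd1 (0.28), Zeb2 (0.28) and Gpt (0.28), where Asns itself varied by 0.57. Gpt, an alanine aminotransferase, averaged 316 CPM in lean and 257 CPM in obese SAT, and 252 CPM in lean and 161 CPM in obese VAT. All 3 had their lowest mean in VAT from obese mice, as Asns did. These genes were picked for their likeness to Asns over the same libraries, so the shared lowest group describes that choice.

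Shmt1 and Shmt2, the cytosolic and mitochondrial serine hydroxymethyltransferases, were not called in any comparison as gene sums. Shmt1 was at 6.01 ± 1.54 CPM in lean and 4.95 ± 0.87 CPM in obese SAT, and at 6.53 ± 1.80 CPM in lean and 6.06 ± 1.498 CPM in obese VAT (955 counts). Its log2 fold changes with diet were -0.31 (95% interval -0.80 to 0.18) and -0.10 (-0.60 to 0.40). The 2 entries of Shmt1 leaned opposite ways between tissues of obese mice, with VAT minus SAT at 0.62 (XM_006532644, unadjusted p = 0.046, edgeR adjusted p = 0.12) and -0.18 (NM_009171, adjusted p = 0.80). Neither was called, but with legacy=FALSE, a later setting of edgeR, the first of them (Shmt1, XM_006532644) passed the test (0.67, adjusted p = 0.047). Shmt2 (211 counts) averaged between 0.87 CPM in lean SAT and 2.31 CPM in obese VAT. The log2 fold changes of Shmt2 with diet were 0.63 in SAT (95% interval -0.52 to 1.78) and 0.46 in VAT (-0.69 to 1.61). Its ratio of VAT to SAT was above 1 in 4 of 4 lean mice (1.03 to 6.36) and 3 of 4 obese mice (0.76 to 2.27), with a log2 difference of 1.16 in lean mice (95% interval 0.12 to 2.197, adjusted p = 0.13). SAT of lean replicate 2, the lowest value of Shmt2, rests on 1 count.

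Mthfd1 encodes the cytosolic enzyme that activates formate and interconverts the folate-bound units. In obese mice it was lower in VAT (2.67, 5.50, 5.52 and 4.33 CPM) than in SAT (9.24, 7.87, 8.30 and 6.84 CPM), with no overlap. The log2 difference was -0.77 (SE 0.29, edgeR adjusted p = 0.046), and the call was lost when any of 6 of the 8 mice was left out (adjusted p up to 0.19, without obese replicate 1). In lean mice the ratio was 0.16 in replicate 1, where VAT had 2 counts of Mthfd1, and between 1.07 and 1.69 in the other 3. With diet its log2 fold change was 0.23 in SAT (95% interval -0.31 to 0.78) and -0.57 in VAT (-1.15 to 0.01, adjusted p = 0.21). Without the VAT library of lean replicate 1 the VAT change was -0.73 and passed the test (adjusted p = 0.036).

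Mthfd2 and Mthfd1l act in mitochondria, where Mthfd2 oxidizes the one-carbon unit and Mthfd1l releases it as formate. In VAT Mthfd2 was at 0.67, 0.42, 0.43 and 0.33 CPM in lean mice (1, 7, 4 and 3 counts) and at 2.67, 0.57, 1.59 and 1.66 CPM in obese mice (7, 7, 17 and 20 counts). Obese replicates 1, 3 and 4 lay above the lean range and replicate 2 within it. The log2 fold change was 1.79 (SE 0.64, 95% interval 0.47 to 3.12) and did not pass the test (edgeR adjusted p = 0.073). It passed without obese replicate 2 (2.16, adjusted p = 0.041), by DESeq2 (1.88, adjusted p = 0.050) and with legacy=FALSE in edgeR (1.71, adjusted p = 0.049). In SAT the value was -0.35 (95% interval -1.54 to 0.84). Between tissues Mthfd2 differed by 1.19 in obese mice (VAT minus SAT, 95% interval 0.06 to 2.33, edgeR adjusted p = 0.10), higher in VAT in 3 of 4 mice, and by -0.74 in lean mice (-2.16 to 0.67). Mthfd1l had 5 counts in all and was at 0 in all 4 libraries of obese SAT and in 3 of 4 libraries of each other group.

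Aldh1l1 encodes the cytosolic dehydrogenase that releases the one-carbon unit of formyltetrahydrofolate as carbon dioxide. In obese mice its level was 14.1, 11.9, 6.86 and 7.23 CPM in SAT and 9.93, 6.15, 4.21 and 3.08 CPM in VAT. Replicates 1 and 2 were highest in both tissues, and each mouse was lower in VAT, by ratios of 0.71, 0.52, 0.61 and 0.43. With mouse as a block the log2 difference was -0.85 (SE 0.21, 95% interval -1.30 to -0.41, edgeR adjusted p = 0.0042). This difference was called in all 14 alternatives (-0.92 to -0.71, adjusted p at most 0.045). Tested singly, the main entry was called (-0.88, edgeR adjusted p = 0.0033) and the other tested entry was not (-0.47, edgeR adjusted p = 0.63).

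In lean mice Aldh1l1 was at 5.08, 3.66, 7.47 and 8.12 CPM in SAT and at 6.68, 5.32, 5.51 and 9.90 CPM in VAT, higher in VAT in 3 of 4 mice (log2 difference 0.15, 95% interval -0.33 to 0.64). With diet the gene leaned upward in SAT (0.73, 95% interval 0.07 to 1.39, edgeR adjusted p = 0.15) and downward in VAT (-0.36, 95% interval -1.07 to 0.36), and neither change was called. The difference of the responses was -1.01 (SE 0.32, unadjusted p = 0.0045, adjusted p = 0.098), which did not pass the test. For the main entry of Aldh1l1 (NM_027406), it passed by DESeq2 (-1.06, adjusted p = 0.046).

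In all, 0 of the 8 genes were called for a difference between the tissues in their response to diet, where 2.47% of all genes were called, and 2 of 8 (Mthfd2 and Aldh1l1) had an unadjusted p below 0.05. The difference (VAT minus SAT) was 1.94 for Mthfd2 (95% interval 0.12 to 3.75, adjusted p = 0.29) and -0.81 for Mthfd1 (-1.67 to 0.06). It was 0.32 for Psat1 (-1.20 to 1.84), 0.21 for Shmt1 (-0.54 to 0.96) and -0.57 for Shmt2 (-1.91 to 0.77). Of the single entries 0 of 10 were called by edgeR and 1 by DESeq2, with 2.17% of all entries called by edgeR. Between tissues of obese mice 3 of 8 genes were called (Aldh1l1, Asns and Mthfd1), all lower in VAT, and 2 more had an unadjusted p below 0.05 with higher levels in VAT (Phgdh 0.26 and Mthfd2 1.19). Called too were 2 of 10 entries (Aldh1l1 and Asns), beside 31.4% of all genes and 29.4% of all entries. The share of called members was therefore near the background there. Mthfd1 and Asns were the 2 of 8 genes whose obese groups did not overlap between tissues, beside 30.2% of all genes. The remaining differences between tissues, VAT minus SAT, were 0.35 for Shmt1 (95% interval -0.17 to 0.87) and 0.59 for Shmt2 (-0.26 to 1.45) in obese mice, and 0.14 for Shmt1 (-0.40 to 0.68) and 0.04 for Mthfd1 (-0.58 to 0.66) in lean mice. The lean mice and the obese mice of the diet comparisons are also those of the tissue comparisons, so these calls share libraries. Past the limit of 1.5, 0 members were called between tissues or for the difference of responses, beside 5.53% of genes and 5.44% of entries in lean mice, 9.39% and 9.59% in obese mice, and 0.656% and 0.632% for the difference.

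**Figure D3:**
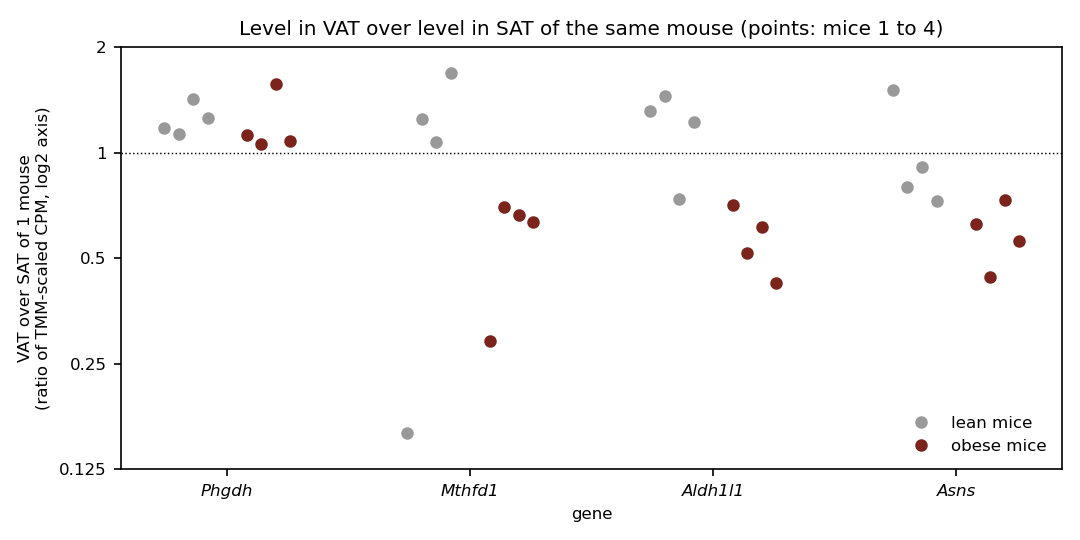
Ratio of the level in VAT to the level in SAT of the same mouse (y axis, log2 scale) for Phgdh, Mthfd1, Aldh1l1 and Asns (x axis), with 1 point per mouse in the order of replicates 1 to 4 and lean mice in grey. In all 4 obese mice the ratio is above 1 for Phgdh (1.06 to 1.57) and below 1 for Mthfd1 (0.29 to 0.70), Aldh1l1 (0.43 to 0.71) and Asns (0.44 to 0.73).

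Adipocyte genes were also lower in VAT than in SAT of obese mice, 6 of 8 by the same test, with a median of -0.81. On the log2 scale Lep was lower by 1.61, Pparg by 1.48, Fabp4 by 0.94, Lipe by 0.92, Plin1 by 0.71 and Adipoq by 0.36. Among the 8 members the values were -0.81 for Asns, -0.77 for Mthfd1 and -0.85 for Aldh1l1. The other 5 were above 0, at 0.26 for Phgdh, 0.06 for Psat1, 0.35 for Shmt1, 0.59 for Shmt2 and 1.19 for Mthfd2. In lean mice 2 of the 8 adipocyte genes were lower (Lep by 1.94, Fabp4 by 0.67), with a median of -0.28. Macrophage genes were higher in VAT, 6 of 6 in obese and 4 of 6 in lean mice, and all 6 mesothelial genes were higher in VAT of both, at 252 to 608 CPM in sum in lean VAT against at most 1.41 CPM in lean SAT. In obese mice B cell genes (5 of 5, median 5.38), T cell genes (4 of 4, median 2.22), 2 of 4 plasma cell genes and 5 of 6 genes of lipid-associated macrophages were higher in VAT too, while Lpl was lower. Of the intestinal list Epcam was higher and Krt20 lower in VAT, and of the pancreas list Pnlip was higher and Cela1 lower (by 1.14). In lean mice 4 of 5 B cell genes, 2 of 4 plasma cell genes and 1 of 4 T cell genes were higher in VAT, along with Epcam, Slc5a1, Zg16, Pnlip and Cpa1, and Cela1 (by 1.18) and Lpl (by 0.84) were lower. Of 5 fibroblast and progenitor genes 4 were called in both diets, Dcn and Dpp4 higher and Pi16 and Col1a1 lower in VAT. Endothelial Kdr was lower in VAT of obese mice (by 0.43) and Cdk1 of the dividing cells in VAT of lean mice (by 1.02). The part of the cell mixture in these tissue differences was not tested.

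Neighbouring pathways were read from 7 lists. Of 18 tested genes of the ATF4 and amino acid response, 4 rose in SAT from obese mice (Ddit4 by 2.08, Fgf21 by 1.71, Chac1 by 1.18, Sesn2 by 0.90) and Ddit3 fell by 0.76, while in VAT Ddit4 (2.27) and Slc7a5 (0.86) rose and Eif4ebp1 fell by 0.42. Ddit4 and Sesn2 restrain mTORC1, Slc7a5 carries large neutral amino acids, and Ddit4 also responds to glucocorticoids and low oxygen. The median of the list was 0.04 in SAT and 0.06 in VAT. Atf4 itself was not called (0.16, SE 0.53 in SAT and 0.62, SE 0.62 in VAT). Sesn2 was the only gene of the list whose diet response differed between tissues (VAT minus SAT -0.75, SE 0.15, edgeR adjusted p = 0.0090).

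Slc1a5, which carries serine, glutamine and other neutral amino acids into the cell, was downregulated in both tissues, from a mean of 876 CPM to 527 CPM in SAT (log2 fold change -0.74, SE 0.18, edgeR adjusted p = 0.0093) and from 795 CPM to 443 CPM in VAT (-0.84, SE 0.18, adjusted p = 0.0032). It was the only one of 5 tested transport genes called with diet. Slc1a4, a serine and alanine carrier, was lower in VAT than in SAT of lean mice (by 1.46) and of obese mice (by 1.29). Of 11 tested genes of glycine cleavage and other folate enzymes, Amt (0.93) and Ggh (0.53) fell in SAT and Ftcd (2.28) and Dld (0.42) fell in VAT, on the log2 scale, and none rose. Dld also serves the pyruvate and other dehydrogenase complexes.

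Of the genes of aspartate, glutamine and asparagine metabolism, Gpt2, an alanine aminotransferase, fell by 0.94 and Glul, glutamine synthetase, by 0.41 on the log2 scale in SAT. In VAT Aspa fell by 2.04 and Gpt by 0.64. Asrgl1, which degrades asparagine, was not called with diet (-0.20 in SAT, -0.22 in VAT).

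Cth, the cystathionine lyase of transsulfuration, was the only one of 7 methionine cycle genes called with diet, lower by 1.43 in VAT (SE 0.31, edgeR adjusted p = 0.0038), with 0 called in SAT (1 at an unadjusted p below 0.05). Of 4 tested genes that use or break down serine, Sptlc2, a subunit of the enzyme that starts sphingolipid synthesis from serine, rose in both tissues (0.44 and 0.38), and Srr, serine racemase, fell by 1.01 in VAT. Of 6 tested purine synthesis genes Pfas fell by 0.47 in SAT and 0 were called in VAT by edgeR (0 at an unadjusted p below 0.05). The list medians lay between -0.25 and 0.10 in SAT and between -0.31 and 0.14 in VAT.

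**Figure D4:**
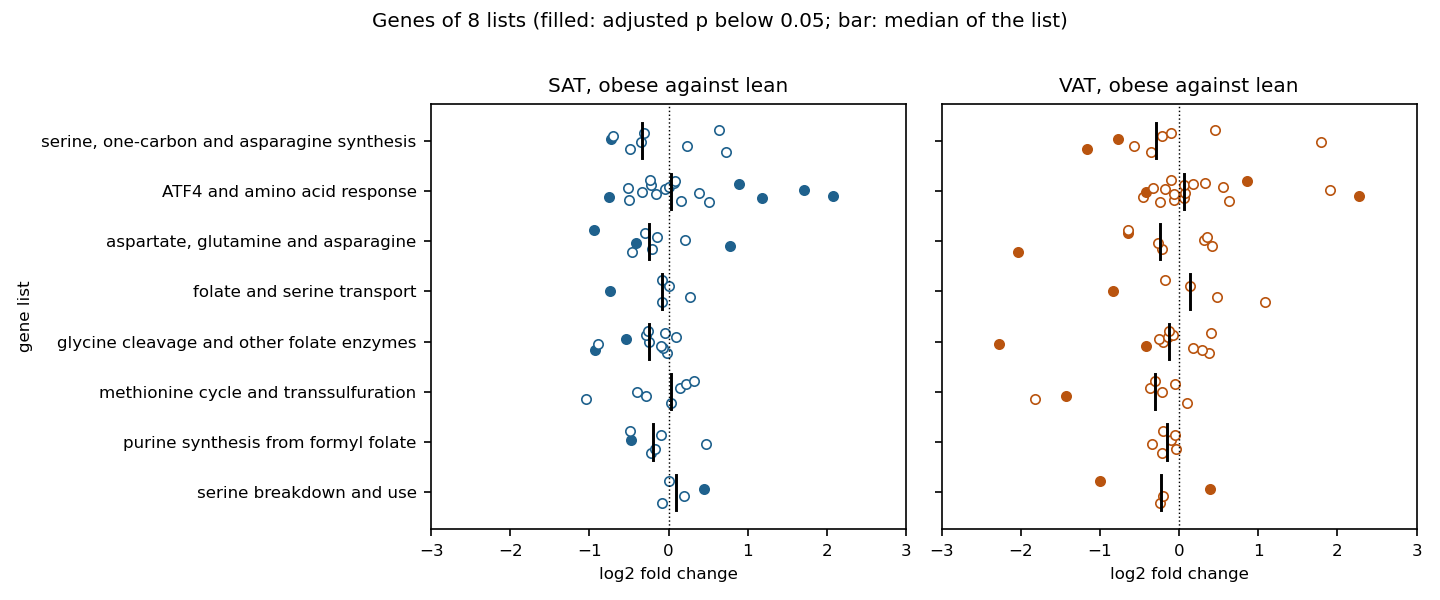
Log2 fold change with obesity (x axis) in SAT and VAT for the tested genes of 8 lists (y axis), 1 point per gene, filled where the adjusted p was below 0.05, with the list's median as a bar. Among the 8 genes of the first list Phgdh alone is filled in SAT and Phgdh and Asns in VAT, all below 0, and of the 18 genes of the ATF4 list 5 are filled in SAT and 3 in VAT, on both sides of 0.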

How the data were processed

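RNA of 16 libraries was measured by paired-end, poly(A) sequencing. The authors trimmed reads with Trim Galore 0.6.6, aligned them to GRCm39 with HISAT2 2.2.0 and counted them on RefSeq transcripts with HTSeq 0.13.5 (versions per the submitters' processing notes). The deposited raw counts are not normalized. The deposited CPM values equal counts over column totals to within 4.9e-10 and carry no TMM factor, so they served only as a check. All 16 count and 16 CPM columns were assigned to samples by name.

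Symbols were matched by RefSeq identifier for 106824 of 130343 entries (82.0%), and 51.7% of 35565 symbols, with 88.7% of the symbols' counts, have 1 entry. Counts were tested per entry and summed per symbol (entries without a symbol kept) with the quasi-likelihood F-test of edgeR 4.0.16 (R 4.3.3; legacy=TRUE) after TMM scaling, keeping features with CPM above 1 in at least 3 libraries (13288 entries, 12186 sums), all 16 libraries in 1 fit. The biological coefficient of variation was 0.211 and 0.205. Diets were compared without a block, since no mouse had both, and tissues and the difference of responses with mouse as a block. SE is the log2 fold change over the root of F. Limits for a count of 0 use 3 counts and cover counting error only. The labels give 1 number per mouse and diet: deviations of SAT and VAT from 1 mouse correlated between -0.009 and 0.173 (median 0.076, 8 pairs), those from different mice of a diet between -0.154 and 0.121 (median -0.039, 24 pairs). Replicates are separate mice, and all 24 pairs of replicate libraries differed beyond counting error (chi-square over degrees of freedom at least 7.98).

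The 10 genes and all lists were chosen with earlier results of these data known, and of 199 list genes 198 were matched. The rule named all 10 genes and, from other lists, genes called in the sums (at most 6 per list and comparison; between tissues only some of these pathway genes are printed), with the 3 genes most like Phgdh and Asns; Atf4, Asrgl1, Pecam1 and, with diet, Pnlip and Cpa1, named without a call, were added after their values were seen. The result of 1 list gene is not reported here. Alternatives were RLE size factors, no filter, legacy=FALSE, DESeq2 1.42.0, limma voom 3.58.1, 1 tissue alone, the replicate block or its absence, the study's limit of 1.5 on log2 fold change, each mouse left out and the shallowest library left out. The test was also run on simulated counts without an effect of the mouse, and the outcome is not reported here. These counts do not check the comparisons with mouse as a block. Promoters came from RefSeq tables. Tables and figures were made in Python 3.11.15 with matplotlib 3.10.9 and pandas 2.3.3.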

Additional observations from a re-analysis of the deposited data

Results flagged for a closer look

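In 3 of 32 groups of 4 libraries (8 genes in 4 groups) 1 library stood apart from the other 3 by Dixon's criterion at the 95% level, which chance meets in about 1 group of 20. Mthfd1 was at 1.34 CPM in VAT of lean replicate 1 (2 counts) against 7.59 to 8.06 CPM in the other 3 lean VAT libraries. Shmt2 was at 4.01 CPM in the same library from 6 counts, and the others had 12 to 15 counts and a lowest level of 0.90 CPM. Shmt1 was at 3.82 CPM in VAT of obese replicate 1 (10 counts) against 6.74 to 6.87 CPM. These are the libraries with the fewest counts of all, 1256082 and 2247737, and 1 count stands for 0.67 and 0.38 CPM in them. Phgdh, with 1173 and 1127 counts in these libraries, was at 783 and 430 CPM, within the range of its group in both.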

How the results depend on the processing

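The fall of Phgdh in SAT and VAT kept its direction and its call in all 16 alternatives each (log2 fold change -0.81 to -0.66 in SAT and -0.86 to -0.64 in VAT, adjusted p at most 0.0031 and 0.0041). No called value changed sign. The larger moves in the count of called members come first. The added limit of 1.5 on the log2 fold change left 0 members in both diet comparisons and both tissue comparisons, for genes and for entries. Without the filter 2 genes were called in SAT (Aldh1l1 joined Phgdh, adjusted p = 0.039). DESeq2 called 1 entry for the difference of responses. In lean mice between tissues 0 genes were called with RLE size factors, without the filter, by DESeq2 and without the mouse as a block (no replicate block). In obese mice between tissues legacy=FALSE called 6 entries. Smaller moves were in VAT with diet, where legacy=FALSE (genes and entries) and DESeq2 (genes) called 3 with Mthfd2 added, and between tissues of obese mice, where legacy=FALSE called 4 genes with Mthfd2 added, no filter called 2 genes and 2 entries with Asns lost and the Mthfd1 entry added, and RLE, DESeq2 and no replicate block called 3 entries with Mthfd1 added. With the replicate block 1 member was called in SAT and 2 in VAT, genes and entries alike, as without it. The labels give mice of different diets no common origin, and they were not treated as paired: deviations of same-numbered libraries correlated between -0.094 and 0.054 in SAT and between 0.081 and 0.173 in VAT. With each mouse or the shallowest library left out, 1 gene and 1 entry were called in SAT, 1 to 3 of each in VAT, 0 for the difference of responses, 0 to 1 of each between tissues of lean mice, and 1 to 3 genes and 1 to 4 entries between tissues of obese mice (4 entries without the VAT library of lean replicate 1, 1 without obese replicate 2 or 4). The causes were not tested. Psat1, Shmt2 and Mthfd2, at no more than 28 counts in a library, had the widest 95% intervals with diet of the 8 genes.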
